A study of Mus musculus with 8 samples.

Results

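Inorganic phosphate enters mammalian cells through sodium-coupled cotransporters and leaves through the exporter XPR1, and 4 genes of this traffic and of the extracellular control of mineral were followed in mouse skeletal muscle. They are *Slc20a1* and *Slc20a2*, which encode the cotransporters PiT-1 and PiT-2, *Xpr1*, and *Enpp1*, an ectoenzyme that makes pyrophosphate from extracellular ATP. They were chosen by gene symbol, and all 4 are among the 12551 counted genes, all of which passed the filter on low counts. Counted genes are those with a row in the deposited counts, and the absence of a row does not mean the absence of reads. RNA was sequenced from whole tibialis anterior (TA) muscles of male mice, 7 weeks of age, 4 wild-type (WT) and 4 Klotho null (KL-/-). The genotypes were littermates from Klotho heterozygous breeders on a mixed background. The null allele is carried by every tissue of the KL-/- mice, so muscle and systemic effects of the loss cannot be told apart. The labels list no treatment for either genotype.

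Klotho is the co-receptor through which FGF23 acts on the kidney to promote phosphate excretion, and mice without it are known for high serum phosphate and soft tissue calcification. The authors reported higher serum phosphate in KL-/- than in WT mice of their study. PiT-1 and PiT-2 carry phosphate into most cell types, and XPR1 carries it out under the control of inositol pyrophosphates. Pyrophosphate outside the cell inhibits the growth of hydroxyapatite, and tissue-nonspecific alkaline phosphatase removes it. Loss of *Enpp1* causes arterial and joint calcification, and variants in *Slc20a2* and *Xpr1* are known causes of familial brain calcification.

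Counts on genes summed to between 20860262 and 29273758 per library. *Kl* has no row among the counted genes, so its transcript was not analysed here and the genotypes were taken from the labels. The authors genotyped their mice by PCR and reported neither *Kl* mRNA by qRT-PCR nor Klotho protein by immunoblot in KL-/- muscle. All 7 skeletal muscle fibre markers were counted, with summed levels of 120568 to 141236 counts relative to library size (CPM) in WT and 136899 to 181349 CPM in KL-/- mice. Of 6 bone and cartilage markers only *Col2a1* was counted, at 0.251 to 1.83 CPM in WT mice and 0.264 to 1.26 CPM in KL-/- mice, and *Bglap*, *Sp7*, *Ibsp*, *Dmp1* and *Acan* have no row. KL-/- replicate 3 is the only library with another batch date, so batch and mouse cannot be told apart there. KL-/- replicate 2 stood apart: its chi-square per gene against the other KL-/- libraries was 60.3 to 84.4, and that among those other libraries was 17.8 to 27.8. WT replicate 4 stood apart to a lesser degree, at 29.9 to 45.9 against the other WT libraries, with 9.91 to 26.3 among those. The labels give each library as a separate sample of its genotype, and p-values measure the spread between these samples.

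*Slc20a1* (chromosome 2, 129198773 to 129211612 of mm10, plus strand) and *Slc20a2* (chromosome 8, 22476700 to 22569616, plus strand) are paralogs, so their shared sequence was examined for reads that could fit both genes. Their coding sequences matched at 67.6% of 1920 aligned bases. The longest identical run was 23 bases, in exon 9 of both genes, and it is printed in capitals with 12 bases on each side because it is where the 2 genes are hardest to tell apart. The sequences are from mm10, 5′ to 3′ on the coding strand, at chr2:129209168-129209214 and chr8:22564159-22564205.
Slc20a1: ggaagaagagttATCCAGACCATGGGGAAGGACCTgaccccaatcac
Slc20a2: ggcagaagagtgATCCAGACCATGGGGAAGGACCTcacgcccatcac

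Of all stretches of 50 bases in the GENCODE transcripts of each gene, 0 were shared between *Slc20a1* and *Slc20a2*. With transcripts of any other gene on either strand, 9.46% of the stretches of *Slc20a1* were shared, all with the antisense genes *9830144P21Rik* and *Gm4430*, neither of which has a row in the deposited counts. The share was 0.732% for *Slc20a2*, 0.351% for *Xpr1* and 0.232% for *Enpp1*. Whether counting used strand is not given in the sources used here, so antisense reads cannot be told apart from those of *Slc20a1*. The 46 shared stretches of *Slc20a2* belong to *Smim19* on the opposite strand, which overlaps 180 of its 3658 exonic bases and was at 32.5 ± 4.80 CPM in WT mice (SD, n = 4) and 33.9 ± 2.07 CPM in KL-/- mice. Its log2 fold change was 0.061 (FDR = 0.714 from edgeR's quasi-likelihood test).

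None of the 4 genes differed between genotypes at an FDR under 0.05 by edgeR's quasi-likelihood test. *Slc20a2* came nearest, 1.26-fold higher in KL-/- muscle, *Slc20a1* was high in only some of the KL-/- mice, and the intervals of *Xpr1* and *Enpp1* lay on both sides of no change. Over all genes 14.0% were called by this test, 7.35% as higher and 6.67% as lower in KL-/- muscle. At an unadjusted p under 0.05, 1 of the 4 genes passed (*Slc20a2*), where 32.1% of all genes did. DESeq2 called 1 of the 4, again *Slc20a2*, against 19.6% of all genes, and limma-voom called 0 of the 4, against 14.1%. The genotypes were separated without overlap in 0 of the 4 genes and in 19.7% of all genes. CPM values here are normalized with TMM factors, and fold changes are KL-/- over WT. In whole muscle, fewer cells of a type and less RNA per cell cannot be told apart.

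**Figure D1:**
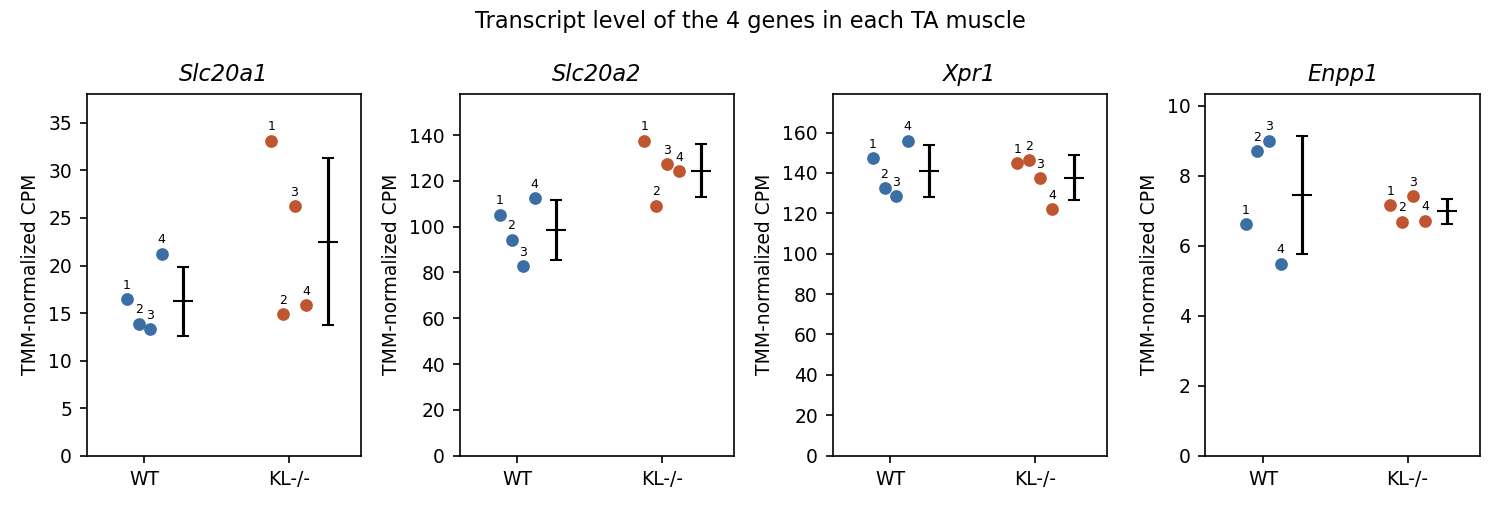
TMM-normalized CPM of *Slc20a1*, *Slc20a2*, *Xpr1* and *Enpp1* (vertical axes, from 0) in each WT and KL-/- muscle, with replicate numbers beside the points and the mean ± SD in black. *Slc20a2* ranges from 82.6 to 112 CPM in WT and from 109 to 138 CPM in KL-/- muscle, and the genotypes overlap in all 4 panels.

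Among the importers, *Slc20a2* was at 105, 94.4, 82.6 and 112 CPM in WT replicates 1 to 4. In KL-/- replicates 1 to 4 it was at 138, 109, 127 and 124 CPM. Every KL-/- value except that of replicate 2 lay above every WT value, and replicate 2 lay below only WT replicate 4. The means were 98.6 ± 13.0 CPM in WT mice and 125 ± 11.7 CPM in KL-/- mice (SD, n = 4). The log2 fold change was 0.34 with a standard error (SE) of 0.10 and a 95% interval of 0.10 to 0.57, an interval of 1.08 to 1.48 as a fold. Its p was 0.00912 before and 0.0583 after adjustment over all genes (edgeR). It did not pass the threshold. With DESeq2 the log2 fold change was also 0.34 and the adjusted p was 0.0198, while limma-voom gave an adjusted p of 0.0584. Without WT replicate 4 the log2 fold change was 0.40 (FDR = 0.0415), and without KL-/- replicate 2 it was also 0.40 (FDR = 0.0220). When libraries were scaled by their totals, without TMM factors, it was 0.22 (FDR = 0.158), and the median over all genes shifted from −0.016 to −0.13.

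*Slc20a1* was at 16.5, 13.9, 13.3 and 21.3 CPM in WT replicates 1 to 4 and at 33.1, 14.9, 26.2 and 15.8 CPM in KL-/- replicates 1 to 4. KL-/- replicates 1 and 3 lay above every WT value, whereas KL-/- replicates 2 and 4 lay inside the WT range. The means were 16.2 ± 3.63 CPM in WT mice and 22.5 ± 8.74 CPM in KL-/- mice (SD, n = 4), so the SD among the KL-/- mice exceeded the difference. The log2 fold change was 0.47 (SE 0.26, 95% interval −0.11 to 1.06, FDR = 0.238 from edgeR). As a fold, the interval ran from 0.926 to 2.08, so both no change and a doubling lay within it. DESeq2 gave an adjusted p of 0.184 and limma-voom one of 0.298. With each sample left out in turn the log2 fold change stayed positive, between 0.24 without KL-/- replicate 1 and 0.63 without WT replicate 4 or KL-/- replicate 2, and the FDR was 0.0955 or more.

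*Xpr1* (chromosome 1, 155275657 to 155417444, minus strand), the exporter, was at 147, 132, 128 and 156 CPM in WT replicates 1 to 4. The KL-/- replicates 1 to 4 were at 145, 146, 137 and 122 CPM. The ranges overlapped, with the highest value in a WT mouse and the lowest in a KL-/- mouse. The means were 141 ± 12.8 CPM and 138 ± 11.1 CPM (SD, n = 4), and the log2 fold change was −0.036 (SE 0.083, FDR = 0.794 from edgeR). Its 95% interval, 0.858 to 1.11 as a fold, was the narrowest of the 4 genes. The sign of this small difference changed without WT replicate 4, to 0.016, and without KL-/- replicate 4, to 0.018 on the log2 scale. With library totals it was −0.15 (FDR = 0.208).

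*Enpp1* (chromosome 10, 24637914 to 24712159, minus strand), the source of pyrophosphate, was at 6.61, 8.70, 9.0 and 5.49 CPM in WT replicates 1 to 4. Its level in KL-/- replicates 1 to 4 was 7.15, 6.68, 7.42 and 6.71 CPM. All KL-/- values lay within the WT range. The means were 7.45 ± 1.68 CPM in WT mice and 6.99 ± 0.358 CPM in KL-/- mice (SD, n = 4). The log2 fold change was −0.088 (SE 0.16, 95% interval −0.44 to 0.26, FDR = 0.733 from edgeR), and it was 0.019 without WT replicate 3 and −0.21 (FDR = 0.366) with library totals. These values rest on 140 to 236 counts per library, against 2040 to 3944 for *Slc20a2*.

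**Figure D2:**
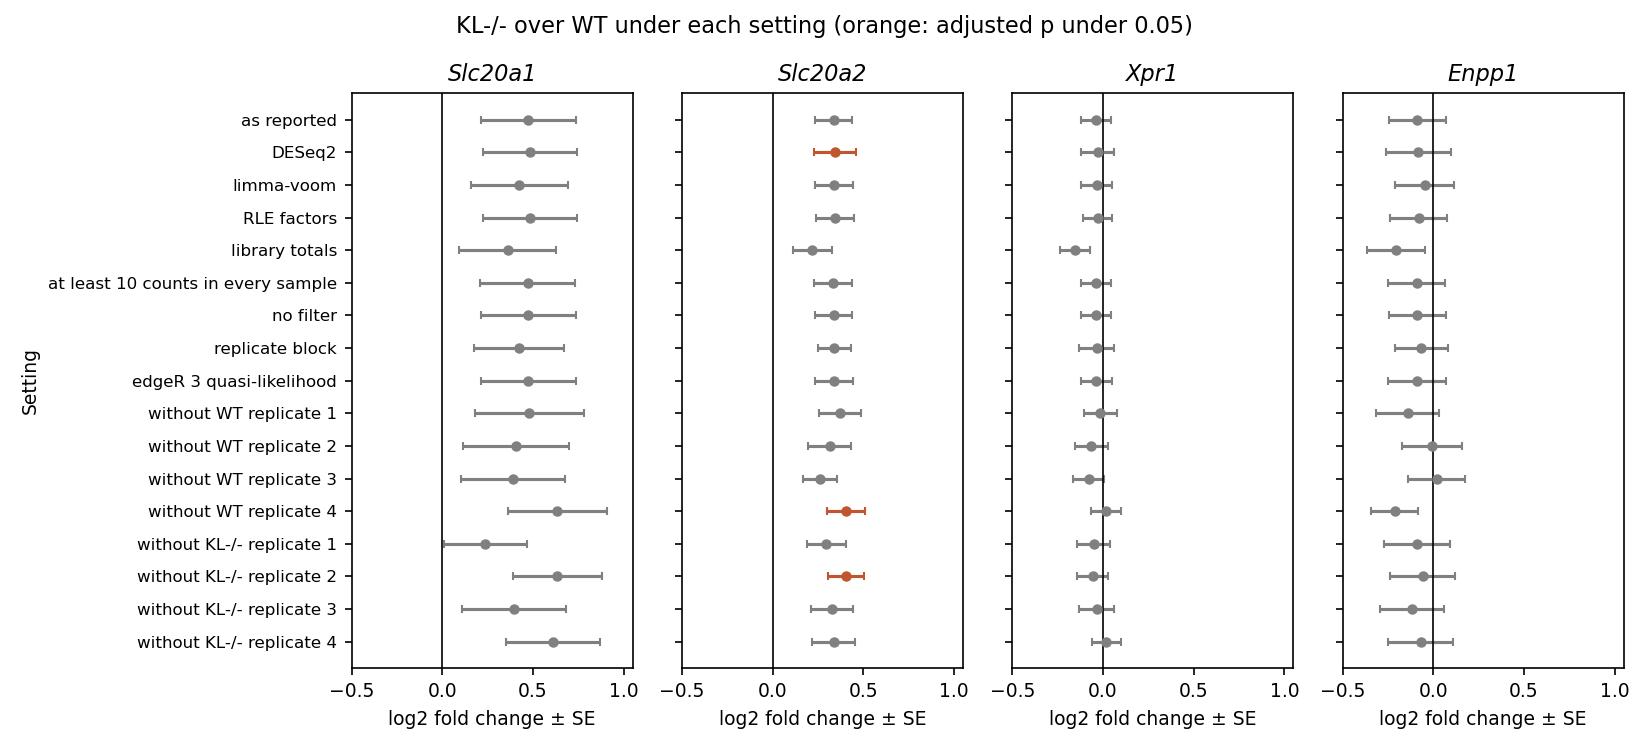
Log2 fold change (KL-/- over WT) ± standard error of each of the 4 genes on the horizontal axes, under each test, scaling, filter and left-out sample on the vertical axis, with orange points at an adjusted p under 0.05. *Slc20a2* is orange with DESeq2 (0.34), without WT replicate 4 (0.40) and without KL-/- replicate 2 (0.40), and no other gene is orange under any setting shown.

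Levels of different genes were compared as CPM per kilobase of exon. *Slc20a2* was highest, at 27.0 ± 3.55 CPM per kb for WT and 34.0 ± 3.20 for KL-/- mice (SD, n = 4). *Xpr1* followed at 18.4 ± 1.68 and 18.0 ± 1.45 CPM per kb. *Slc20a1* was at 3.90 ± 0.872 and 5.41 ± 2.10 CPM per kb, and *Enpp1* was lowest at 1.10 ± 0.248 and 1.03 ± 0.0528 CPM per kb. No neighbours in this order overlapped in any sample: the lowest *Slc20a2* value, 22.6 CPM per kb, lay above the highest *Xpr1* value, 20.4, and the lowest *Slc20a1* value, 3.20, lay above the highest *Enpp1* value, 1.33. On this scale 86.5% of all counted genes lay below *Slc20a2*, 78.8% below *Xpr1*, 47.5% below *Slc20a1* and 17.7% below *Enpp1*.

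**Figure D3:**
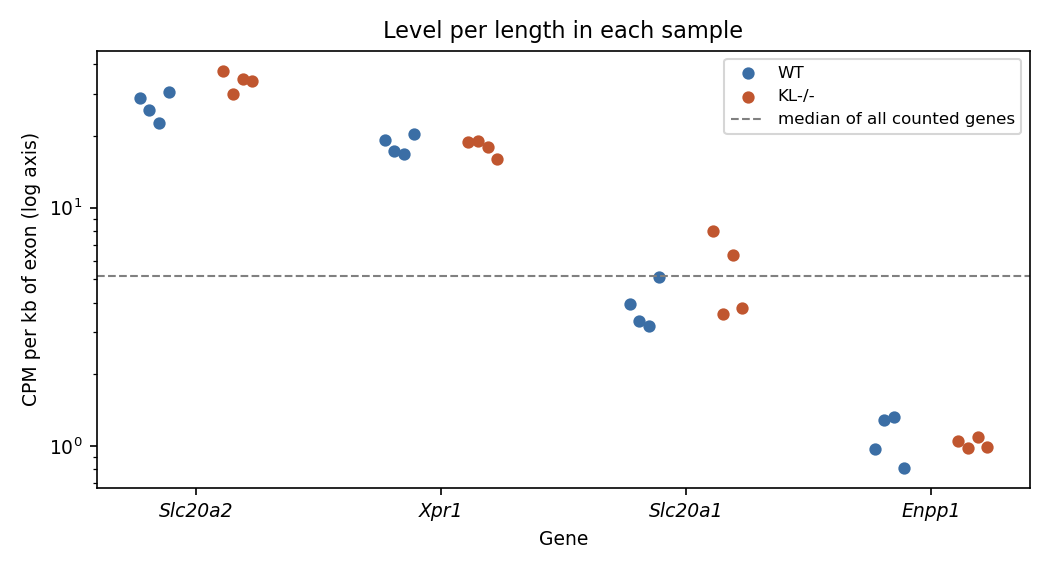
CPM per kilobase of exon (vertical log axis) of the 4 genes in each WT and KL-/- sample, with a dashed line at the median of all counted genes, 5.18. The order from *Slc20a2* through *Xpr1* and *Slc20a1* to *Enpp1* is the same in all samples.

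*Slc20a2* made up most of the importer transcript per length, 87.5% ± 1.21 for WT and 86.6% ± 3.59 for KL-/- mice (SD, n = 4). Its lowest shares were in KL-/- replicates 1 and 3, the mice with the highest *Slc20a1*, at 82.5% and 84.6%. The ratio of both importers to the exporter, in CPM per kb, was 1.70, 1.68, 1.54 and 1.76 in WT replicates 1 to 4 and 2.41, 1.75, 2.29 and 2.37 in KL-/- replicates 1 to 4. All KL-/- mice but replicate 2 lay above the WT range, and replicate 2 lay just under WT replicate 4. The mean log2 ratio was 0.74 ± 0.083 in WT and 1.13 ± 0.22 in KL-/- muscle, a difference of 0.39 that ranged from 0.34 to 0.50 with each sample left out. This ratio is given as a description, since it was built from genes whose values were known.

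Lists of related genes, holding 89 genes in all, placed the 4 genes among the rest of their pathways. Of these, 68 were counted, and 3 were higher and 3 lower in KL-/- muscle at an FDR under 0.05 (edgeR), 8.82% against 14.0% of all genes. At an unadjusted p under 0.05, 22 of the 68 passed against 32.1% of all genes. DESeq2 called 14 of the 68 against 19.6% of all genes, and limma-voom called 6 against 14.1%. The genotypes did not overlap in 5 higher and 5 lower genes of the 68, against 19.7% of all genes.

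In plasma membrane phosphate transport, 6 of 10 genes were counted and 0 were called by edgeR, with a median log2 fold change of 0.18 against −0.016 over all genes. The sodium-phosphate cotransporters of kidney and gut, *Slc34a1*, *Slc34a2* and *Slc34a3*, and the scaffold *Pdzk1* were not among the counted genes. At an unadjusted p under 0.05, 1 passed (*Slc20a2*), which DESeq2 also called, and limma-voom called 0. *Kidins220*, whose product binds XPR1, was at 82.6 ± 6.29 CPM in WT mice and 81.3 ± 9.14 CPM in KL-/- mice (SD, n = 4), giving a log2 fold change of −0.022 (FDR = 0.884). Its sign changed in several of the fits that left out 1 sample.

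All 9 intracellular phosphate carriers were counted and 0 were called, with 3 at an unadjusted p under 0.05 and 0 called by DESeq2 or limma-voom. *Slc25a3*, the mitochondrial phosphate carrier, had the highest level of the list at 1026 ± 44.5 CPM in WT mice and 1111 ± 150 CPM in KL-/- mice (SD, n = 4), giving a log2 fold change of 0.11 (FDR = 0.463). *Slc25a25*, a mitochondrial carrier that exchanges ATP-Mg for phosphate, was at 39.1, 23.0, 19.6 and 74.4 CPM in WT replicates 1 to 4. The KL-/- replicates 1 to 4 were at 36.3, 106, 262 and 110 CPM. KL-/- replicate 1 lay within the WT range and the other 3 KL-/- mice lay above it. The log2 fold change of 1.72 (SE 0.58, FDR = 0.0754 from edgeR) did not pass, but it was 2.24 (FDR = 0.0441) without WT replicate 4 and 2.04 (FDR = 0.0379) without KL-/- replicate 1. Without KL-/- replicate 3, its highest sample, it was 1.11 (FDR = 0.205). *Slc37a4*, which moves glucose 6-phosphate against phosphate, was at 162 ± 13.7 and 124 ± 30.2 CPM, which gave a log2 fold change of −0.39 (FDR = 0.105). It passed without KL-/- replicate 2 (−0.56, FDR = 0.00455) and with library totals (−0.51, FDR = 0.0377).

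Inositol pyrophosphates control XPR1, and 1 of the 13 genes of their turnover was called, with a list median of 0.0040. *Nudt10*, a phosphohydrolase of these molecules, rose from 0.897 ± 0.140 CPM in WT mice to 1.71 ± 0.373 CPM in KL-/- mice (SD, n = 4), giving a log2 fold change of 0.94 (SE 0.22, FDR = 0.0256 from edgeR). Its level was low, and the closely related *Nudt11* (log2 fold change 0.55, FDR = 0.0798), named here after its values were seen, could share its reads. The call was kept without WT replicate 1 (FDR = 0.0360) and without KL-/- replicate 2 (FDR = 0.00781), and lost without any 1 of the other 6 samples, with an FDR of up to 0.0745. The kinase gene *Ppip5k1* was at 156 ± 34.2 and 135 ± 19.5 CPM, which gave a log2 fold change of −0.21 (FDR = 0.375). *Nudt3* and *Nudt4*, the phosphohydrolases with the highest levels, had log2 fold changes of 0.062 (FDR = 0.570) and 0.063 (FDR = 0.643). Both of these became negative with library totals.

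Of the genes of extracellular ATP, pyrophosphate and phosphatase, 14 of 16 were counted and 1 was called, with a list median of −0.10. An unadjusted p under 0.05 (edgeR) was found for 5 of the 14, against 32.1% of all genes. DESeq2 called 4, against 19.6% of all genes, and limma-voom called 2, against 14.1%. *Abcc6* and *Entpd3* were not among the counted genes. *Enpp4*, an ectonucleotidase related to *Enpp1*, was at 98.0, 93.6, 92.0 and 102 CPM in WT replicates 1 to 4. Its level in KL-/- replicates 1 to 4 was 69.4, 83.7, 68.4 and 65.7 CPM. Every KL-/- value lay below every WT value, and the log2 fold change was −0.42 (SE 0.081, FDR = 0.0118 from edgeR). This call was kept in all 8 fits that left out 1 sample. *Ank*, whose product exports ATP and so raises extracellular pyrophosphate, was at 272 ± 49.4 and 283 ± 47.6 CPM (log2 fold change 0.058, FDR = 0.814), with a sign that changed with library totals. *Phospho1*, a phosphatase that acts in matrix vesicles, was at 244 ± 22.3 CPM in WT mice and 313 ± 51.8 CPM in KL-/- mice, giving a log2 fold change of 0.36 (FDR = 0.0744 from edgeR and 0.0312 from DESeq2). It was 0.48 (FDR = 0.00456) without KL-/- replicate 2 and 0.24 (FDR = 0.181) with library totals in edgeR.

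Of the mineralization inhibitors and osteogenic factors, 12 of 21 genes were counted, with 1 higher and 1 lower and a list median of −0.44. An unadjusted p under 0.05 (edgeR) was found for 5 of the 12, against 32.1% of all genes. DESeq2 called 4, against 19.6% of all genes, and limma-voom called 2, against 14.1%. The osteoblast genes *Bglap*, *Bglap2*, *Ibsp* and *Sp7*, the transcription factor genes *Msx2* and *Dlx5*, and *Sost*, *Tnfrsf11b* and *Tnfsf11* were not among the counted genes. *Gas6*, a vitamin K-dependent ligand of the receptor AXL, was at 103, 94.0, 95.7 and 96.4 CPM in WT replicates 1 to 4. In KL-/- replicates 1 to 4 it was at 125, 119, 129 and 137 CPM. It was higher in every KL-/- mouse than in every WT mouse, with a log2 fold change of 0.39 (SE 0.060, FDR = 0.00598 from edgeR), and the call was kept in all 8 fits that left out 1 sample. *Axl* itself was at 34.5 ± 7.13 and 22.3 ± 8.10 CPM (log2 fold change −0.62, FDR = 0.11), and it passed with DESeq2 (adjusted p = 0.0484) and without KL-/- replicate 1 (−0.86, FDR = 0.0417 from edgeR). *Sparc*, a matrix glycoprotein, was at 671 ± 304 CPM in WT mice and 437 ± 120 CPM in KL-/- mice (log2 fold change −0.62, FDR = 0.219).

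*Ggcx*, the carboxylase that activates vitamin K-dependent proteins, was at 11.2, 11.8, 13.2 and 11.5 CPM in WT replicates 1 to 4. In KL-/- replicates 1 to 4 it was at 7.22, 10.6, 7.29 and 7.54 CPM. All KL-/- values lay below all WT values, with replicate 2 nearest to them, and the log2 fold change was −0.55 (SE 0.13, FDR = 0.0278 from edgeR). The FDR was 0.0663 without WT replicate 2, 0.0781 without WT replicate 3, 0.0678 without KL-/- replicate 1, 0.0793 without KL-/- replicate 3 and also 0.0793 without KL-/- replicate 4. It was 0.00293 without KL-/- replicate 2.

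All 7 familial brain calcification genes, which include *Slc20a2* and *Xpr1*, were counted and 0 were called by edgeR, with 1 at an unadjusted p under 0.05, 1 called by DESeq2 and 0 by limma-voom. The list median was −0.036. *AI464131*, the symbol under which the glycosidase gene *Myorg* was counted, was at 174 ± 16.5 and 157 ± 16.4 CPM (SD, n = 4), which gave a log2 fold change of −0.15 (FDR = 0.296).

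Of the mineral hormone signalling genes, 9 of 15 were counted, with 1 higher and 1 lower and a list median of 0.16. An unadjusted p under 0.05 (edgeR) was found for 5 of the 9, against 32.1% of all genes. DESeq2 called 4, against 19.6% of all genes, and limma-voom called 1, against 14.1%. *Vdr*, *Cyp24a1*, *Cyp27b1*, *Dmp1*, *Fgf23* and *Galnt3* were not among the counted genes. *Fam20c*, the Golgi kinase of secreted proteins such as FGF23 and osteopontin, fell from 20.7 ± 1.68 CPM in WT mice to 14.6 ± 2.20 CPM in KL-/- mice (SD, n = 4), giving a log2 fold change of −0.51 (SE 0.11, FDR = 0.02 from edgeR). The call was lost without WT replicate 2 (FDR = 0.0548), WT replicate 3 (0.0586), KL-/- replicate 1 (0.0504), KL-/- replicate 3 (0.0575) or KL-/- replicate 4 (0.0605). *Stc2*, which encodes a stanniocalcin, a secreted glycoprotein, rose from 2.27 ± 0.435 to 4.81 ± 1.94 CPM, which gave a log2 fold change of 1.09 (SE 0.29, FDR = 0.0360), and limma-voom gave it an adjusted p of 0.0529. Its call was kept without KL-/- replicate 1 (FDR = 0.0488) or replicate 2 (0.00893), and lost without any 1 of the other 6 samples, with an FDR of up to 0.0914. *Furin*, a protease that cleaves FGF23, was at 60.1 ± 3.18 and 71.6 ± 6.19 CPM, which gave a log2 fold change of 0.25 (FDR = 0.0513 from edgeR and 0.0208 from DESeq2). In edgeR it was 0.32 (FDR = 0.00791) without KL-/- replicate 2, 0.26 with RLE factors, just past the threshold, and 0.14 (FDR = 0.220) with library totals. The vitamin D receptor partners *Rxra* (0.16, FDR = 0.287) and *Rxrb* (0.070, FDR = 0.438) did not pass on the same log2 scale, and *Rxrb* became negative with library totals.

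**Figure D4:**
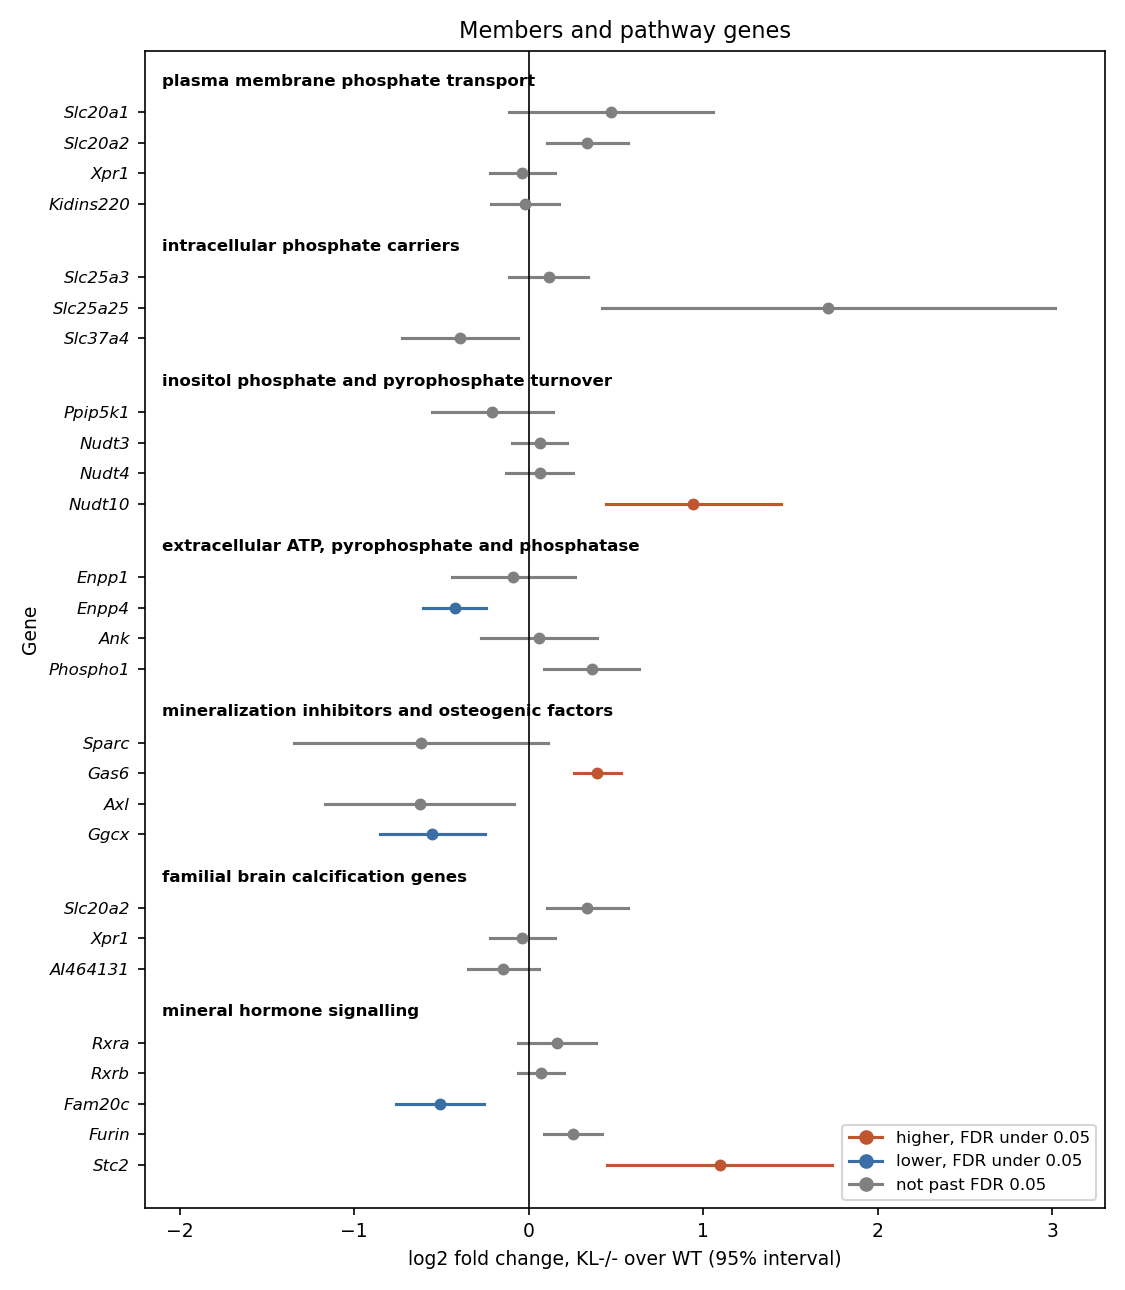
Log2 fold change (KL-/- over WT, horizontal axis) with its 95% interval for the 4 genes and for the genes named from each of the 7 lists, grouped by list on the vertical axis. Orange marks genes higher and blue genes lower at an FDR under 0.05. *Gas6*, *Nudt10* and *Stc2* are orange and *Enpp4*, *Ggcx* and *Fam20c* are blue, and *Slc20a1*, *Slc20a2*, *Xpr1* and *Enpp1* are grey.

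Markers of other cell types are given as their summed level and the number called by edgeR, where 14.0% of all genes were called. Summed markers lay at 728 to 2862 CPM in WT mice and 399 to 1270 CPM in KL-/- mice for fibro-adipogenic progenitors, with overlap and 2 of 6 lower. *Col1a1* and *Col3a1* had the highest levels of that list and were not called (FDR = 0.145 and 0.126 from edgeR). The range was 181 to 224 CPM in WT mice and 55.3 to 142 CPM in KL-/- mice for tendon, with 2 of 5 lower. The summed ranges of tendon markers did not overlap. Schwann cell markers, without overlap either, lay at 52.7 to 93.8 CPM in WT mice and 97.9 to 119 CPM in KL-/- mice, with 3 of 6 higher. For endothelium the ranges were 379 to 598 and 339 to 384 CPM with 1 of 6 lower, and for macrophages 39.6 to 92.6 and 29.7 to 58.4 CPM with 1 of 8 lower, and both pairs of ranges overlapped. Pericyte and smooth muscle markers lay at 317 to 475 and 341 to 435 CPM with overlap and 1 of 6 higher, and adipocyte markers at 179 to 199 and 206 to 252 CPM with 1 of the 3 counted higher. The adipocyte sum was nearly all *Fabp4*, the gene called, with means of 187 CPM in WT and 225 CPM in KL-/- mice. *Adipoq* (1.53 and 4.28 CPM, FDR = 0.218 from edgeR) and *Cidec* (1.22 and 4.33 CPM, FDR = 0.181) overlapped between genotypes and were not called. The part of these marker levels in the values of the phosphate and mineralization genes was not tested.

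The genes whose log2 CPM followed each of the 4 most closely over the 8 samples are given as a description, since the samples share 2 genotypes and their library scaling. For *Slc20a2* these were *Nr2c2* (Pearson's r 0.99), *Gtf3c2* (0.99) and *Scaf11* (0.98). For *Slc20a1* they were *Ubr4* (0.97), *Pprc1* (0.97) and *Sel1l* (0.96). For *Xpr1* they were *Ubr7* (0.96), *Zfp407* (0.95) and *Pdzrn3* (0.94), and for *Enpp1* they were *Tmem176b* (0.97), *Maged2* (0.96) and *Kdelc1* (0.94). None of these 12 genes passed an FDR of 0.05 between genotypes (edgeR), where 14.0% of all genes did. They were picked to follow genes that did not pass, so this is no separate result.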

How the data were processed

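The deposited values are counts of reads per gene, without normalization, which the authors made by aligning reads to mm10 with STAR, excluding low-quality alignments and counting with featureCounts. The gene annotation and the strand setting are not given in the sources used here. The analysis used edgeR 4.0.16 in R 4.3.3: the default low-count filter kept all 12551 genes, TMM factors scaled the libraries, and a genotype-only quasi-likelihood fit was adjusted by Benjamini-Hochberg over all genes (FDR under 0.05). The floor of 3 counts was 0.102 to 0.144 CPM. Alternatives were DESeq2 1.42.0, limma-voom (limma 3.58.1), RLE factors, library totals, 2 other count filters, a replicate block, each sample left out and, added after seeing the data, the edgeR 3 quasi-likelihood fit. The setting without a filter kept the same genes and so repeated the main fit. The tests were checked on simulated counts whose changes were larger than those of the 4 genes. That check does not show how often differences as small as theirs are found. Sequences came from mm10 with GENCODE transcripts. The 4 genes and the lists were chosen with earlier results of these data known. Genes named from each list are those past the threshold and the 3 with the highest level. The 3 genes with the highest correlation to each of the 4 genes are named as well. The authors named edgeR for their own test, and the main test follows it.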

Additional observations from a re-analysis of the deposited data

Results flagged for a closer look

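Of 50 sets of 4 samples tested (the 2 genotypes of 25 named genes), 3 held a sample far from the others, and chance alone gives about 1 in 20. All 3 were KL-/- replicate 2, the library that stood apart most over all genes. In *Kidins220* it was at 95 CPM and the other KL-/- samples at 76.2 to 77.2 CPM, a gap of 0.948 of the whole range. In *Ggcx* it was at 10.6 CPM, above the others at 7.22 to 7.54 CPM (gap 0.906 of the range). In *Fam20c* it was at 17.8 CPM, above the others at 13.2 to 13.6 CPM (gap 0.9 of the range). In *Ggcx* and *Fam20c* this sample was the KL-/- sample nearest to WT.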

How the results depend on the processing

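The fit without a filter was the main fit again, since the default filter kept all genes, so it is no separate check. With it included, *Slc20a1* kept its direction in all 16 fits and did not pass an adjusted p of 0.05 in any of them. *Slc20a2* kept its direction and passed in 3 of them, with DESeq2 (0.34), without WT replicate 4 and without KL-/- replicate 2. With each sample left out, the log2 fold change of *Slc20a2* was 0.26 to 0.40, of *Xpr1* −0.078 to 0.018 and of *Enpp1* −0.21 to 0.019. *Xpr1* turned positive without WT replicate 4 (0.016) and KL-/- replicate 4 (0.018), and *Enpp1* without WT replicate 3 (0.019). In these fits with a sample left out, genes called over all genes numbered 762 (without KL-/- replicate 3) to 2755 (without KL-/- replicate 2). In the same fits calls ranged from 0 to 2 in membrane transport, carriers and inositol pyrophosphate genes, 1 to 4 in extracellular genes, 1 to 2 in mineralization genes, 0 to 1 in brain calcification genes and 0 to 4 in hormone genes. DESeq2 called 19.6% of all genes. Of the counted list genes it called 1 of 6 transport, 1 of 13 inositol pyrophosphate and 4 of 14 extracellular genes. It also called 4 of 12 mineralization, 1 of 7 brain calcification and 4 of 9 hormone genes. limma-voom called 14.1% of all genes, with 1 inositol pyrophosphate, 2 extracellular, 2 mineralization and 1 hormone genes. Library totals called 2 carriers and 1 inositol pyrophosphate, 4 extracellular, 3 mineralization and 2 hormone genes. The replicate block called 1 extracellular, 1 mineralization and 1 hormone gene. Lists not named for a setting had 0 genes called. Of all 12551 genes, 2619 were called with library totals and 671 with the replicate block. To look for pairs, the mean of each genotype was subtracted for each gene. The remaining deviations of same-numbered samples correlated at −0.37 to 0.18 over 4 pairs. By these deviations 1 WT and 0 KL-/- samples correlated best with their own number, so the numbers were not taken as pairs. Library totals turned *Slc25a3* (−0.0035), *Nudt3* (−0.055), *Nudt4* (−0.054), *Ank* (−0.059) and *Rxrb* (−0.048) negative. With each sample left out, *Kidins220* ranged from −0.096 to 0.024 and *Ank* from −0.0038 to 0.19. *Kidins220* turned positive without WT replicate 4 (0.024), KL-/- replicate 1 (0.012), KL-/- replicate 3 (0.0080) or KL-/- replicate 4 (0.0040), and *Ank* negative without WT replicate 2 (−0.0038), WT replicate 3 (−0.0038) or KL-/- replicate 3 (−0.00051). The cause of these changes was not tested. Of the 4 genes, precision was lowest for *Slc20a1*, with a 95% interval of −0.11 to 1.06.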
